A study of Mus musculus with 6 samples.

Results

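The 9 genes described here encode the core of mouse polyamine metabolism: *Odc1*, *Amd1*, *Srm* and *Sms* for synthesis, *Sat1* and *Smox* for catabolism, and *Azin1*, *Oaz1* and *Oaz2* for control by antizyme. They were taken by gene symbol, and all 9 were present among the 35602 genes of the count table and among the 34714 genes of the single-library tables. Splenic CD4+ T cells were stimulated through CD3 and CD28 for 72 h and treated with MAPK13-IN-1, an inhibitor of the kinase encoded by *Mapk13*, or with its solvent DMSO, and their RNA was sequenced in 3 libraries per group. Replicates 2 and 3 of each group came from wild-type (WT) spleen and were made from 3 µg of RNA with poly-T beads. Their labels place the addition of 17.1 µM inhibitor or 0.1 µl DMSO after day 1 of stimulation, whereas the series text describes stimulation in the presence of the agent. The replicate 1 pair was made from 2 µg of RNA with a stranded mRNA kit, and its labels give neither genotype nor dose. The count libraries (replicates 2 and 3) held 26874805 and 28487403 counts with DMSO and 33854760 and 32617702 counts with MAPK13-IN-1. The replicate 1 pair was deposited as normalized values in files that name no unit. From their relation to exon length, the values were taken to be FPKM (fragments per length of transcript and per sequencing depth). That relation cannot tell FPKM from another unit scaled by length. The depth of the replicate 1 pair is unknown, the pair has no replicate, and it entered no test.

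Polyamines are small positively charged molecules that bind nucleic acids and are needed for cell growth. Odc1 makes putrescine from ornithine, Srm and Sms add aminopropyl groups to form spermidine and spermine, and Amd1 supplies the aminopropyl donor from S-adenosylmethionine. Antizymes bind Odc1 and direct it to the proteasome, and Azin1 binds antizyme in place of Odc1. T cells raise polyamine synthesis when they are activated.

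In the count libraries *Odc1* and *Srm* fell with MAPK13-IN-1, *Srm* to about 0.328 and *Odc1* to about 0.57 of the DMSO level. The other 7 genes differed by less, between 0.824 and 1.26 of the DMSO level. With edgeR's quasi-likelihood test and p-values adjusted by Benjamini-Hochberg over 16269 genes, 8 of the 9 genes passed an adjusted p of 0.05, 2 higher and 6 lower. Over all genes tested 63.8% passed, 31.5% higher and 32.3% lower, so that a call was common among genes of any kind. The median log2 fold change was -0.21 over the 9 genes and 0.01 over all genes tested. Nothing in the labels says that the replicates came from separate cultures, and the p-values measure only the spread between these libraries. Scaling by library totals alone moved the median of all genes from 0.01 to 0.14. Over all genes tested, 6176 were then called higher and 4302 lower, against 5122 and 5252 in the test above. Of the 9 genes, *Odc1* and *Srm* were then the 2 called lower, with *Amd1*, *Sat1* and *Oaz2* called higher. Without DMSO replicate 2 or DMSO replicate 3 the log2 fold change was -0.83 or -0.81 for *Odc1* and -1.65 or -1.58 for *Srm*. The calls of *Sms*, *Sat1*, *Smox* and *Oaz1* depended on the libraries used, as given for each gene below. In bulk RNA, fewer cells of a type and less RNA per cell cannot be told apart.

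*Odc1*, the first enzyme of the pathway and the target of antizyme, lies at chr12:17544794-17551505 on the plus strand of GRCm38. It had 268.2 and 272.3 CPM (reads per gene after scaling each library by its total and its TMM factor) in the DMSO libraries and 145.4 and 162.8 CPM in the MAPK13-IN-1 libraries. Both treated libraries were far below both controls. The mean went from 270.2 ± 2.91 CPM (SD, n = 2) to 154.1 ± 12.3 CPM (SD, n = 2). The log2 fold change was -0.81 (SE 0.0643, adjusted p = 2.28e-06 from edgeR). *Odc1* went the other way in the replicate 1 pair, from 142.2 FPKM with DMSO to 228.1 FPKM with MAPK13-IN-1.

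*Srm*, spermidine synthase, lies at chr4:148591503-148594993 on the plus strand. Its DMSO libraries held 66.7 and 69.8 CPM and its MAPK13-IN-1 libraries 20.9 and 23.8 CPM. The groups did not overlap, which also held for 13209 of the 15825 genes tested and present in both kinds of table. The change of *Srm* was the largest among the 9 genes. The log2 fold change was -1.61 (SE 0.0866, adjusted p = 1.95e-07 from edgeR), with means of 68.2 ± 2.18 and 22.4 ± 2.06 CPM (SD, n = 2 each). *Srm* of the replicate 1 pair stood at 56.4 FPKM with DMSO and 64.5 FPKM with MAPK13-IN-1, again in the other direction.

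*Amd1*, which decarboxylates S-adenosylmethionine, had 49.3 and 47.9 CPM with DMSO and 58.2 and 64.7 CPM with MAPK13-IN-1. It was higher in both treated libraries, with a log2 fold change of 0.34 (SE 0.077, adjusted p = 0.00297 from edgeR). In FPKM, replicate 1 went from 22.9 to 17.9. *Amd2* on the same chromosome is a near copy of *Amd1*, so the division of reads between them is uncertain. *Amd2* itself had 6.01 and 6.21 CPM with DMSO and 6.59 and 7.94 CPM with the inhibitor, and did not pass the test (log2 fold change 0.25, adjusted p = 0.187 from edgeR). It was at 0.10 and not called without MAPK13-IN-1 replicate 3, and at 0.38 and called without MAPK13-IN-1 replicate 2.

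*Sms*, spermine synthase, had 85.4 and 87.0 CPM with DMSO and 80.3 and 67.8 CPM with MAPK13-IN-1. The treated libraries were both lower but further apart from each other than the nearer of them was from the controls. The log2 fold change of -0.22 had an adjusted p of 0.0385 from edgeR, and it did not pass without MAPK13-IN-1 replicate 3 (-0.11) or without DMSO replicate 2 (-0.24) or 3 (-0.21). It also did not pass with RLE scaling, library totals, a minimum of 10 counts in every library, or DESeq2. FPKM of *Sms* in the replicate 1 pair were nearly level, at 21.4 and 21.1.

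The 2 catabolic genes were called in opposite directions. *Sat1* acetylates spermidine and spermine, which marks them for oxidation or export. It had 97.5 and 93.1 CPM with DMSO and 111.5 and 106.3 CPM with MAPK13-IN-1 (log2 fold change 0.19, SE 0.0628, adjusted p = 0.0206 from edgeR). Without DMSO replicate 2 or 3 its log2 fold change was 0.21 or 0.15 and did not pass. It moved in the same direction in the replicate 1 pair, from 66.9 to 99.5 FPKM.

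*Smox*, which oxidizes spermine back to spermidine, had 200.7 and 201.8 CPM with DMSO and 163.2 and 185.2 CPM with MAPK13-IN-1. Its log2 fold change of -0.21 (SE 0.0671, adjusted p = 0.0194 from edgeR) did not pass without DMSO replicate 2 (-0.23), without DMSO replicate 3 (-0.21) or with library totals (-0.08). An opposite and much larger difference was seen in the replicate 1 pair, 15.8 FPKM with DMSO against 52.9 FPKM with MAPK13-IN-1. That was a 3.35-fold difference, the largest of the 9 genes in that pair.

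Of the antizyme genes, *Azin1* and *Oaz1* were lower and *Oaz2* did not pass the test. *Azin1*, the antizyme inhibitor, had 73.3 and 73.4 CPM with DMSO and 61.0 and 59.9 CPM with MAPK13-IN-1 (log2 fold change -0.28, SE 0.0651, adjusted p = 0.00344 from edgeR). Scaling by library totals left it at -0.15, which did not pass. Its exons overlap those of an annotated gene on the other strand, *Gm49077*, and their reads cannot be told apart where strand was not used in counting. The replicate 1 pair went from 30.8 to 25.0 FPKM, also lower.

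*Oaz1*, the main antizyme, whose protein is made through a ribosomal frameshift that polyamines promote, had 390.5 and 376.4 CPM with DMSO and 336.8 and 347.9 CPM with MAPK13-IN-1. The log2 fold change of -0.16 (SE 0.052, adjusted p = 0.0182 from edgeR) did not pass with library totals (-0.04), with at least 10 counts in every library (-0.12), without DMSO replicate 2 (-0.15) or without DMSO replicate 3 (-0.20). Replicate 1 was at 315.1 and 258.7 FPKM. *Oaz2*, a second antizyme, had 49.99 and 48.65 CPM with DMSO and 52.13 and 52.18 CPM with MAPK13-IN-1 (log2 fold change 0.08, adjusted p = 0.338 from edgeR). With library totals it was 0.21 and passed. Its FPKM in the replicate 1 pair were 16.7 and 23.2.

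**Figure D1:**
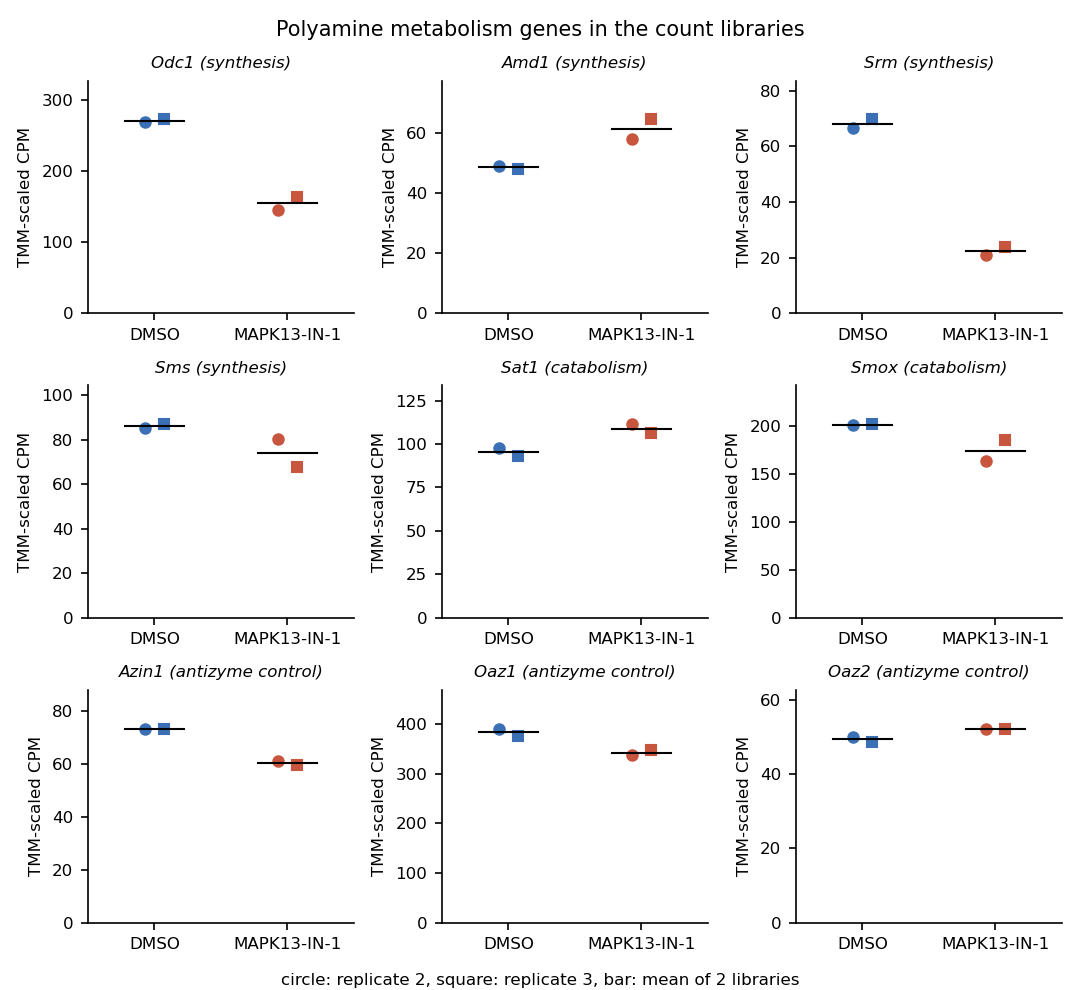
TMM-scaled CPM (vertical axis, from 0) of each of the 9 polyamine genes in the 2 DMSO libraries (blue) and the 2 MAPK13-IN-1 libraries (red), with a circle for replicate 2, a square for replicate 3 and a bar at the mean. *Odc1* and *Srm* show the widest separation, at means of 270.2 against 154.1 CPM and 68.2 against 22.4 CPM.

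Ratios of counts between genes of the same library do not depend on how libraries are scaled. The count of *Odc1* per count of *Oaz1* was 0.687 and 0.723 in the DMSO libraries and 0.432 and 0.468 in the MAPK13-IN-1 libraries. In the replicate 1 pair the same ratio, taken between FPKM values, was 0.451 with DMSO and 0.882 with the inhibitor. The treated libraries thus lay below the controls in the count table and above the control in the other pair. The count of *Srm* per count of *Sms* went from 0.781 and 0.802 to 0.261 and 0.352. In FPKM it was 2.63 with DMSO and 3.05 with the inhibitor in the replicate 1 pair. The count of *Sat1* per count of *Odc1* was 0.364 and 0.342 with DMSO and 0.767 and 0.653 with MAPK13-IN-1, against FPKM ratios of 0.47 and 0.436 in the replicate 1 pair.

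Per length of annotated exon, *Oaz1* and *Odc1* had the highest levels of the 9 genes in each group of the count libraries and in both libraries of the replicate 1 pair. In CPM per kb of exon, the DMSO means were 149.9 for *Oaz1*, 79.4 for *Odc1*, 51.7 for *Smox*, 42.7 for *Srm* and 34.4 for *Sat1*. *Oaz2*, *Sms*, *Amd1* and *Azin1* followed between 16.5 and 11.7 CPM per kb, and no neighbours in this order overlapped between the DMSO libraries. With MAPK13-IN-1 the means were 133.8 for *Oaz1*, 45.3 for *Odc1*, 44.7 for *Smox* and 39.3 for *Sat1*, and *Srm* stood at 14.0 CPM per kb, in place 7 of 9. There *Odc1* and *Smox* overlapped between libraries, as did *Amd1* and *Oaz2*, and *Srm* and *Sms*. In the replicate 1 pair *Smox* had the lowest FPKM of the 9 genes with DMSO and was in place 5 with the inhibitor. The tables were normalized separately, so levels were compared only within each.

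The replicate 1 pair and the count libraries differed in direction for 4 of the 8 called genes, *Odc1*, *Srm*, *Smox* and *Amd1*. Of 10193 called genes present in both kinds of table, 33.6% had the opposite sign and 65.9% the same sign in the replicate 1 pair. The 2 sets differ in kit, RNA input, table and unit, and the labels of replicate 1 give no dose. They differ in B cell transcripts as well. In the count libraries with DMSO the B cell genes summed to 1016 and 989 CPM, beside 1696 and 1718 CPM for the CD4 T cell genes. In the replicate 1 library with DMSO they summed to 46.1 FPKM, beside 1265 FPKM. The difference between the sets, and the part of any of these in it, was not tested. The median log2 ratio of (FPKM + 1) in that pair was 0.19 over the 9 genes and 0.07 over the genes tested in the count table.

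**Figure D2:**
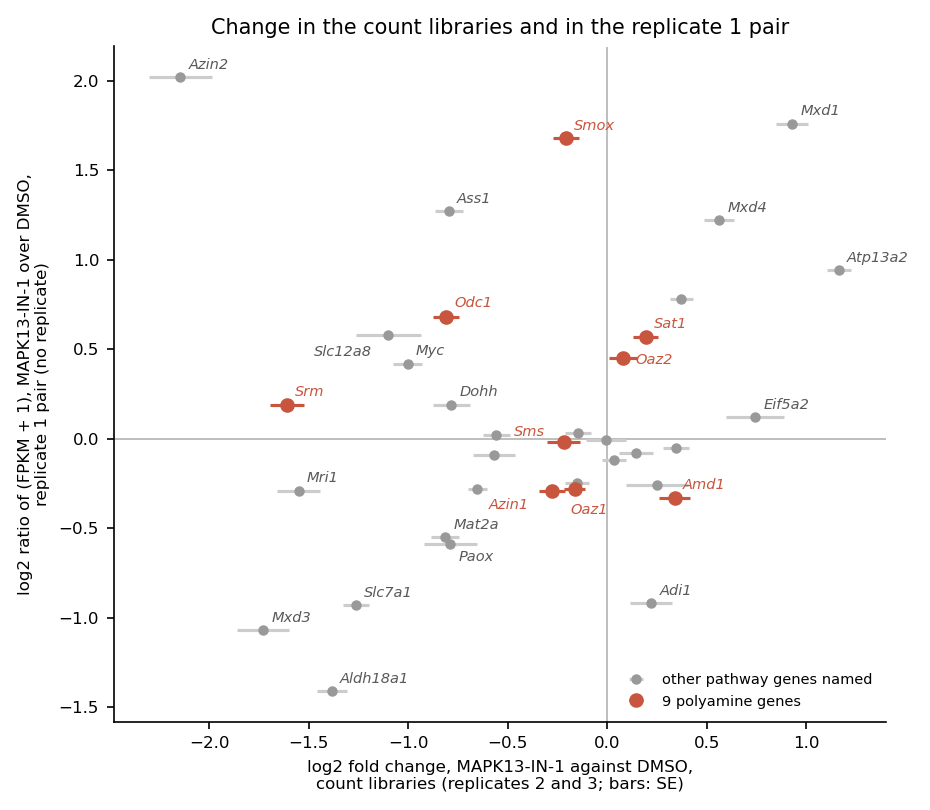
Log2 fold change in the count libraries (horizontal axis, bars are SE) against the log2 ratio of (FPKM + 1) in the replicate 1 pair (vertical axis, no replicate) for the 9 polyamine genes (red) and the other pathway genes named in the text (grey). *Odc1* (-0.81 and 0.68), *Srm* (-1.61 and 0.19) and *Smox* (-0.21 and 1.68) lie in the upper left and *Amd1* (0.34 and -0.33) in the lower right.

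A further 45 genes that make, use or carry polyamines and their precursors, or that belong to the Myc network, were listed by role, and 33 of them were tested. Of these, 7 were called higher and 16 lower, beside 31.5% and 32.3% of all genes tested. The median log2 fold change was -0.15 over the 33 genes and 0.01 over all genes tested.

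Among relatives of the 9 genes, *Azin2*, a second antizyme inhibitor, fell from 31.6 and 31.8 CPM to 5.72 and 8.65 CPM (log2 fold change -2.14, adjusted p = 1.41e-06 from edgeR). It went from 5.19 to 24.0 FPKM in the replicate 1 pair, the opposite direction. *Paox*, which oxidizes acetylated polyamines, fell from 10.9 and 10.7 CPM to 6.06 and 6.40 CPM (log2 fold change -0.79, adjusted p = 0.000433 from edgeR), and was also lower in the replicate 1 pair, at 6.10 and 3.70 FPKM. *Oaz3* had between 1 and 10 counts per library, *Sat2* and *Agmat* had at most 4 and 3 counts, and *Satl1* had 0. None of these 4 genes was tested.

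Spermidine is used to make hypusine, a modified lysine of the translation factor eIF5A. Of the 4 hypusine genes 3 fell and 1 rose. *Eif5a* went from 859.2 and 859.0 CPM to 559.3 and 533.6 CPM (log2 fold change -0.65, adjusted p = 1.54e-06 from edgeR). The enzymes that make hypusine fell as well, *Dhps* by a log2 fold change of -0.57 and *Dohh* by -0.78. *Eif5a2*, the less abundant form, rose by 0.74.

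Synthesis of spermidine and spermine releases methylthioadenosine, which is returned to methionine. Of the 5 genes of this salvage route, 2 fell and 3 did not pass the test. *Mri1* had 50.03 and 47.99 CPM with DMSO and 14.88 and 18.62 CPM with MAPK13-IN-1 (log2 fold change -1.55, adjusted p = 1.01e-06 from edgeR). *Mtap*, the first enzyme of the route, was at 0.14 (adjusted p = 0.159 from edgeR), *Adi1* at 0.22 and *Enoph1* at -0.01. *Adi1* depended on the libraries used, at 0.07 and not called without MAPK13-IN-1 replicate 2 and at 0.36 and called higher without MAPK13-IN-1 replicate 3. It was also called at 0.35 with library totals and at 0.27 with at least 10 counts in every library. Of the S-adenosylmethionine synthetase genes, *Mat2a* fell from 150.1 and 156.2 CPM to 92.3 and 81.8 CPM (log2 fold change -0.81, adjusted p = 4.08e-06 from edgeR). Its regulatory partner *Mat2b* was at -0.15 (adjusted p = 0.0658 from edgeR) and was called only without MAPK13-IN-1 replicate 3 (-0.17), with library totals leaving it at -0.02, and *Mat1a* had 0 counts.

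Of 10 genes for ornithine and arginine supply, 8 were tested, 4 fell and none rose. The arginine transporter *Slc7a1* had 421.2 and 454.6 CPM with DMSO and 173.1 and 191.6 CPM with MAPK13-IN-1 (log2 fold change -1.26, adjusted p = 1.61e-07 from edgeR). *Aldh18a1*, which starts the route from glutamate to ornithine and proline, fell with a log2 fold change of -1.38. Both were also lower in the replicate 1 pair, at 52.6 and 27.1 FPKM for *Slc7a1* and 56.9 and 20.8 FPKM for *Aldh18a1*. *Ass1* fell in the count libraries (-0.80) and went from 39.5 to 96.5 FPKM in the replicate 1 pair. *Oat*, which converts ornithine, was at 0.03 and did not pass the test.

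Of 9 genes linked to polyamine transport, 4 were tested. *Atp13a2*, a lysosomal polyamine exporter, rose from 65.5 and 68.7 CPM to 149.8 and 150.5 CPM (log2 fold change 1.16, adjusted p = 1.79e-07 from edgeR), and stood at 8.05 and 16.3 FPKM in the replicate 1 pair. *Atp13a3* was at -0.15 and did not pass (adjusted p = 0.0507 from edgeR), but it was called without MAPK13-IN-1 replicate 3 (-0.19), and library totals left it at -0.03. *Slc12a8* fell by a log2 fold change of -1.10.

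*Odc1* is a known target of the transcription factor Myc. *Myc* fell from 264.9 and 295.4 CPM to 132.4 and 147.3 CPM (log2 fold change -1.0, adjusted p = 1.19e-06 from edgeR). In the replicate 1 pair *Myc* went from 55.0 to 73.7 FPKM. *Odc1* had the same directions in both sets, and an opposite sign in the pair was seen for 33.6% of called genes. A part of *Myc* in the change of *Odc1* was not tested. Of the 7 genes of the Myc network 4 rose and 3 fell. The genes other than *Myc* encode its partner Max or competitors for Max, and they moved both ways. *Mxd1*, *Mxi1* and *Max* rose by log2 fold changes of 0.93, 0.37 and 0.34. The remaining 3 genes of the list, named after their values were seen, were *Mxd4* at 0.56, *Mnt* at -0.56 and *Mxd3* at -1.73, the largest change in the list, and all 3 were called.

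Profiles over the 4 count libraries were compared by the Euclidean distance between mean-centred log2 CPM, among genes of similar level. The 3 genes nearest to *Srm* among 4623 were *Slc25a39* (distance 0.0336), *Bckdha* (0.0421) and *Rexo2* (0.0534). *Slc25a39* had 79.9 and 85.1 CPM with DMSO and 26.0 and 29.0 CPM with MAPK13-IN-1. The 3 genes nearest to *Amd1* among 4389 were *Iba57* (0.0141), *Sbk1* (0.0233) and *Nadk2* (0.0244). Log2 fold changes of the neighbours were -1.59, -1.60 and -1.60 for *Srm* and 0.35, 0.35 and 0.33 for *Amd1*. With 2 libraries per group, near profiles are largely those with a like fold change. Shared regulation was not tested.

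Markers of several cell types moved with the treatment in the count libraries. Over all genes tested 31.5% were called higher and 32.3% lower. Of 8 CD4 T cell genes 7 were lower. *Cd4* itself was at 274.7 and 275.7 CPM with DMSO and 267.0 and 283.1 CPM with MAPK13-IN-1. The summed level of the 8 genes, scaled by library totals, was 1696 and 1718 CPM with DMSO and 992 and 1110.3 CPM with MAPK13-IN-1. The most abundant was *Cd5* with DMSO and *Cd4* with MAPK13-IN-1. B cell transcripts were present in these libraries, although the series text calls the cells sorted and the methods of the study name a CD4 T cell isolation kit. The 8 B cell genes measured summed to 1016 and 989 CPM with DMSO and 1265 and 1283 CPM with MAPK13-IN-1, 5 of them higher and 1 lower. In the replicate 1 pair they summed to 46.1 and 34.0 FPKM, beside 1265 and 1127 FPKM for the CD4 T cell genes. Their part in the changes of the polyamine genes was not tested.

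The 9 macrophage genes summed to 12.1 and 11.0 CPM with DMSO and 42.5 and 34.7 CPM with MAPK13-IN-1, led by *Cd68*. Of the 7 that were tested, 5 were called higher. The 7 erythroid genes summed to 7.52 and 7.09 CPM and to 94.0 and 66.7 CPM, led by *Hbb-bs*, with 5 of the 6 tested called higher. The 2 CD8 genes were lower, at 11.2 and 10.4 CPM against 5.76 and 8.16 CPM, with *Cd8b1* the more abundant. In the replicate 1 pair the CD8 genes went the other way, from 3.49 to 8.39 FPKM, while macrophage genes went from 3.02 to 9.96 FPKM and erythroid genes from 0.928 to 1.93 FPKM. Of 6 neutrophil genes only *Mpo* was tested, and it was called higher on sums of at most 0.92 CPM, with *S100a9* at 0. The 3 NK cell genes summed to at most 0.443 CPM, led by *Klrb1c*, with *Klra8* at 0. *Mapk13*, the gene of the inhibited kinase, had 79 and 74 counts with DMSO and 21 and 51 counts with MAPK13-IN-1. Its level was low, at most 3.06 CPM, and it was called lower (log2 fold change -1.47, adjusted p = 0.0049 from edgeR). In the replicate 1 pair *Mapk13* went the other way, from 0.191 FPKM with DMSO to 3.28 FPKM with the inhibitor. The part of these differences in the polyamine results was not tested.

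Promoter sequences from RefSeq (GRCm38.p6) matched 7 of the 9 genes, with 8 starts in all, and *Srm* and *Azin1* are named only. In the 250 bases before each start, both strands were searched for the E-box CACGTG bound by Myc and its partners, the TCF motif CTTTGA and the ATF4 motif TGATGNAA. The E-box was in 1 of the 8 windows, at a start of *Sms*, and in 6.02% of 32851 promoter windows of that length. The TCF and ATF4 motifs were in 0 of the 8 windows and in 13.8% and 3.45% of all windows. A match is a description of letters and shows no binding, and a window without one says only that these letters are not there. Shown are the *Sms* window with the E-box in capitals and, for the matched genes with the largest fall and the largest rise, the bases before the start that lie outside annotated exons. They are chrX:157492288-157492537 on the minus strand for *Sms*, chr12:17544623-17544793 on the plus strand for *Odc1* and chr10:40302189-40302438 on the minus strand for *Amd1*.
Sms: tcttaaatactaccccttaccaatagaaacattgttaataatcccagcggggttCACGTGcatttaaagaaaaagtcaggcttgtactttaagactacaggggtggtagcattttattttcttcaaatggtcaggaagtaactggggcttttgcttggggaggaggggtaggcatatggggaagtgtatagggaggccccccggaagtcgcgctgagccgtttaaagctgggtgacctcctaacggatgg
Odc1: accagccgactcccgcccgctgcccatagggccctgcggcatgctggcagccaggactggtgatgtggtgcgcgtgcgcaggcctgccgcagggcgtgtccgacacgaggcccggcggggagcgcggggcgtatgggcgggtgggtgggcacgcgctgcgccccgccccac
Amd1: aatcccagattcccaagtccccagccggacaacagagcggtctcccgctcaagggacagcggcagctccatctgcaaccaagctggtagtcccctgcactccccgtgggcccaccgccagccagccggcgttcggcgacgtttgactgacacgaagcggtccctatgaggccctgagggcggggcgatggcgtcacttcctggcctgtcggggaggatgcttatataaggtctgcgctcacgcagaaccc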

How the data were processed

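For replicates 2 and 3 the authors deposited counts of reads per gene, whole numbers without normalization. The submitters' processing notes name fastp 0.21.0, HISAT2 2.1.0, StringTie 2.1.5 and DESeq2 1.30.1, with mouse build mm10. Replicate 1 was deposited as a normalized value for each gene, taken as FPKM from its relation to exon length, and their notes name FastQC and HISAT2. Whether counting used strand is not given in the sources used here.

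The test ran in edgeR 4.0.16 under R 4.3.3. Low genes were removed with filterByExpr (minimum count 10, minimum total 15), libraries were scaled by TMM (factors 0.96 and 0.955 for DMSO, 1.05 and 1.04 for MAPK13-IN-1) and 2 libraries were compared with 2 by the two-sided quasi-likelihood test, with Benjamini-Hochberg adjustment over 16269 genes. The script was tested on simulated data. All 9 polyamine genes passed the filter. Between replicates the chi-square per gene had a median of 1.02 in DMSO and 2.2 in MAPK13-IN-1, so no library was treated as a copy of another. FPKM were compared as log2 ratios with a pseudocount of 1, which understates changes of low genes. Coordinates and exon lengths came from GENCODE M21 on GRCm38. Summed marker levels were scaled by library totals.

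The members and lists were chosen with earlier results of these data known. Named were the 9 genes, up to 4 genes of highest mean CPM per pathway list, every relative of the 9 genes, and the 3 nearest profiles of the members with the smallest p among those higher and among those lower. The rest of the Myc network was added after its values were seen. A gene covered by this rule is not reported here. Alternatives were RLE scaling, library totals, no count filter, at least 10 counts in every library, a replicate block, DESeq2 1.42.0, each library left out, a pseudocount of 0.1, and at least 1 FPKM in both libraries. Protein sequences were not used here.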

Additional observations from a re-analysis of the deposited data

Results flagged for a closer look

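For 16 of the 37 polyamine and pathway genes screened, both MAPK13-IN-1 libraries of the count table lay on one side of both DMSO libraries while the replicate 1 pair differed in the other direction. The same held for 30.0% of the 15825 genes tested that were in both kinds of table. The difference between the 2 sets of libraries was not tested. Among the 9 polyamine genes these were *Odc1*, *Srm* and *Smox*, lower in the count table and with log2 ratios of (FPKM + 1) of 0.68, 0.19 and 1.68 in the replicate 1 pair, and *Amd1*, higher in the count table and at -0.33 in the pair.

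Among the other pathway genes, those lower in the count table and higher in the replicate 1 pair were *Azin2* (2.02), *Dohh* (0.19), *Mat2b* (0.03), *Ass1* (1.27), *Slc12a8* (0.58), *Myc* (0.42) and *Mnt* (0.02). Those higher in the count table and lower in the pair were *Amd2* (-0.26), *Adi1* (-0.92), *Mtap* (-0.08), *Oat* (-0.12) and *Max* (-0.05). Of these, *Amd2*, *Adi1*, *Mtap*, *Mat2b* and *Oat* did not pass the test in the count table. The ratios of *Mnt* (0.02), *Mat2b* (0.03) and *Max* (-0.05) were nearly level, in a pair without replicate. The median ratio in that pair was 0.07 over the genes tested in the count table.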

How the results depend on the processing

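*Odc1*, *Amd1* and *Srm* kept their direction and stayed called under all 10 alternatives of the count test, with log2 fold changes of -0.90 to -0.69, 0.25 to 0.46 and -1.71 to -1.48. No polyamine gene changed sign. With library totals alone *Sms* (-0.09), *Smox* (-0.08), *Azin1* (-0.15) and *Oaz1* (-0.04) were no longer called, *Oaz2* (0.21) was, and 2 polyamine genes were called lower. Over all genes tested, that scaling gave 6176 calls higher and 4302 lower, against 5122 and 5252 with TMM scaling. *Sms* also lost its call with RLE scaling (-0.20), with at least 10 counts in every library (-0.17) and with DESeq2 (-0.21), as *Oaz1* did with at least 10 counts (-0.12). With a library left out, the lone library was assumed to vary like the others. Log2 fold changes then ranged from -0.35 to -0.11 for *Sms* and from 0.15 to 0.22 for *Sat1*. They ranged from -0.31 to -0.12 for *Smox* and from -0.20 to -0.14 for *Oaz1*. Each of these genes lost its call in some of these fits. The cause was not tested.

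Same-numbered libraries did not deviate together (correlation across genes -0.00641), so the numbers were not taken as pairs. With the replicate number as a replicate block 10645 genes were called, against 10374 without it, and the polyamine calls were again 2 higher and 6 lower. *Enoph1*, not called in any fit, changed sign with RLE scaling (0.01), library totals (0.12), at least 10 counts (0.04), DESeq2 (0.00), and without DMSO replicate 3 or MAPK13-IN-1 replicate 3 (-0.06 to 0.04 with a library left out). Other pathway genes not called in the report were called in some fits: *Adi1* with library totals, at least 10 counts, the replicate block (0.21) and without MAPK13-IN-1 replicate 3, *Atp13a3* with the block (-0.15) and without MAPK13-IN-1 replicate 3, *Mtap* (0.27) and *Oat* (0.16) with library totals, and *Mat2b* and *Amd2* with 1 library left out.

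With a pseudocount of 0.1 the replicate 1 ratios were -0.35 for *Amd1*, 1.74 for *Smox*, -0.30 for *Azin1* and 0.47 for *Oaz2*, and the median over the genes tested in the count table was 0.14. It was 0.05 with at least 1 FPKM in both libraries. Unknown depth limits that pair.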
